A study of Mus musculus with 25 samples.

Results

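The genes described here encode 10 proteins of the sarcomere, its anchoring disc and the muscle costamere: Igfn1, Ankrd1, Ankrd2, Csrp3, Xirp1, Xirp2, Mybph, Flnc, Nrap and Myot. They were chosen by name, as genes known to respond to strain or to take part in sarcomere repair, and with the difference of Igfn1 between the treatment groups already known. All 10 were present among the 8829 genes measured. The measurements come from the gastrocnemius, a hindlimb muscle made mostly of fast fibres, of male SAMP8 mice, an inbred line with accelerated senescence on an AKR/J background. Control mice (n = 11) received the corn oil vehicle and Thymol mice (n = 14) received thymol, a plant phenol, in corn oil by oral gavage at a daily dose of 20 mg/kg, and in both groups dosing began at 8 months of age and lasted 3 months. All mice were therefore aged SAMP8 animals given repeated gavage, and no young or non-senescent strain is part of the comparison. Each mouse gave 1 library and is named here by its group and the last number of its label.

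Muscle fibres sense load at the Z-disc, where thin filaments of neighbouring sarcomeres are cross-linked, along the elastic protein titin, and at the costamere, which ties the sarcomere to the membrane. Several proteins at these sites are made in larger amounts after stretch, eccentric contraction or denervation, and some of them also move to the nucleus. Others, such as the Xin proteins and filamin C, gather at lesions of the myofibril while it is repaired. The study asked what thymol did to the ageing muscle, and the comparison here asks how these genes differed between the groups, how far they varied among mice given the same treatment, and whether they varied together.

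Transcripts were counted by QuantSeq 3' mRNA sequencing, which makes about 1 read per transcript from its 3' end, so that the count of a gene does not scale with its length. Values are log2 CPM, where CPM is a read count scaled to a common library size, and a difference of 1 is a doubling. The depth of a library, as reads on the measured genes, lay between 4463818 and 9463418 (median 7503259). The first 3 principal components held 11.6%, 9.12% and 6.74% of the variance, and the mice farthest out on them were control 18, thymol 20 and control 19. These 3 libraries are left out below where a value rests on them. In bulk muscle, fewer fibres of a type and less RNA per fibre cannot be told apart.

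Positions are given in GRCm38. Igfn1 (chromosome 1, 135953578 to 136006342, minus strand) and Mybph (134193448 to 134201232, plus strand) lie on the same chromosome, as do Ankrd1 (chromosome 19, 36111961 to 36120099, minus strand), Ankrd2 (42036000 to 42045110, plus strand) and Nrap (56320035 to 56390037, minus strand). Xirp2 lies on chromosome 2 (67446002 to 67526614, plus strand), Flnc on chromosome 6 (29433256 to 29461883, plus strand), Csrp3 on chromosome 7 (48830398 to 48848033, minus strand) and Xirp1 on chromosome 9 (120013755 to 120023598, minus strand). Of the annotated genes that overlap a member, among them Cx3cr1 at Xirp1, Adora1 at Mybph and Habp2 at Nrap, 0 are in the table. The last 500 bases of the members' protein-coding transcripts shared 0% of their 31-base words with transcripts of other genes.

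Because several of these genes varied together among mice, the bases before the transcription start are shown for 5 of them. Igfn1 and Mybph are shown as 2 of the 3 most variable members, and Ankrd2, Csrp3 and Flnc as members that varied together. The sequences are from RefSeq (GRCm38.p6), 5' to 3' on the gene's strand, with bases of GENCODE exons left out and the matches to 5 motifs in capitals. The motifs were the E-box CANNTG, bound by myogenic regulators such as MyoD, the MCAT element CATTCC, bound by TEAD factors, TATAAA, the CArG box and the MEF2 site, each searched on both strands.
Igfn1 (chr1:136006343-136006592, minus strand): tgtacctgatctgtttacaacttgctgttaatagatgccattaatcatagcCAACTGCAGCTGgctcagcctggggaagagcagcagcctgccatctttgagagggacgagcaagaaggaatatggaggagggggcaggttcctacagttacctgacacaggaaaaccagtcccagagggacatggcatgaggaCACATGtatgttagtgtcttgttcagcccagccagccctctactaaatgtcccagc
Mybph (chr1:134193198-134193447, plus strand): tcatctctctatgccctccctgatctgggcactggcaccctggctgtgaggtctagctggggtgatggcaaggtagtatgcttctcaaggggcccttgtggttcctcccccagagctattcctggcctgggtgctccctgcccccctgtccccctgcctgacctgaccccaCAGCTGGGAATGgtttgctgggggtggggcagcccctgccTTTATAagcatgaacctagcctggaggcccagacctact
Ankrd2 (chr19:42035777-42035999, plus strand): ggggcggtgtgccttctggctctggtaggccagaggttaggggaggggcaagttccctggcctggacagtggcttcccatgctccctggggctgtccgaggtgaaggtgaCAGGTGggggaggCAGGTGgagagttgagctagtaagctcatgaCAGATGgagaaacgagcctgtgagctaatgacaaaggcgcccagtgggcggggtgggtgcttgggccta
Csrp3 (chr7:48848052-48848301, minus strand): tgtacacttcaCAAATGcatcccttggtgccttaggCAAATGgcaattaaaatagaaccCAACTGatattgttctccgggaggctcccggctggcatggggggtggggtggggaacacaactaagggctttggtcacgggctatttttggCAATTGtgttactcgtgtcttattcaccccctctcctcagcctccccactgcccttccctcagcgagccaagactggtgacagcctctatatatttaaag
Flnc (chr6:29433006-29433255, plus strand): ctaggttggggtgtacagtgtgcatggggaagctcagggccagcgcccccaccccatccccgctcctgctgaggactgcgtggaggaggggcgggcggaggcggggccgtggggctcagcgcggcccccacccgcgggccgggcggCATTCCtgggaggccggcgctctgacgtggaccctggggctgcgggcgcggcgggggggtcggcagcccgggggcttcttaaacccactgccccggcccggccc
The capitals in Igfn1 are 3 E-boxes, of which 2 directly follow each other, and those in Ankrd2 are 3 E-boxes and in Csrp3 are 4. The capitals in Mybph are an E-box, an MCAT element that directly follows it and TTTATA, and those in Flnc are 1 MCAT element. Csrp3 and Flnc each have a second RefSeq start, which is not shown. The 250 bases before that of Csrp3 held 4 E-boxes. Those before that of Flnc held no match, so the marked MCAT element is not wholly upstream of the second Flnc start. Counted over the whole 300-base window that runs to 50 bases past the start, an E-box was present for 7 of the 8 members with an entry and in 72.3% of all 32851 promoters. An MCAT element was present for 3 of 8 members (Ankrd1, Mybph and Flnc) and in 14.7% of promoters. A MEF2 site was present for 1 of 8 (Xirp2) and in 3.19%, TATAAA for 2 of 8 and in 13.6%, and a CArG box for 0 of 8 and in 1.63%. With so few genes these are descriptions of the letters, and they say nothing of which factor acted.

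**Figure D1:**
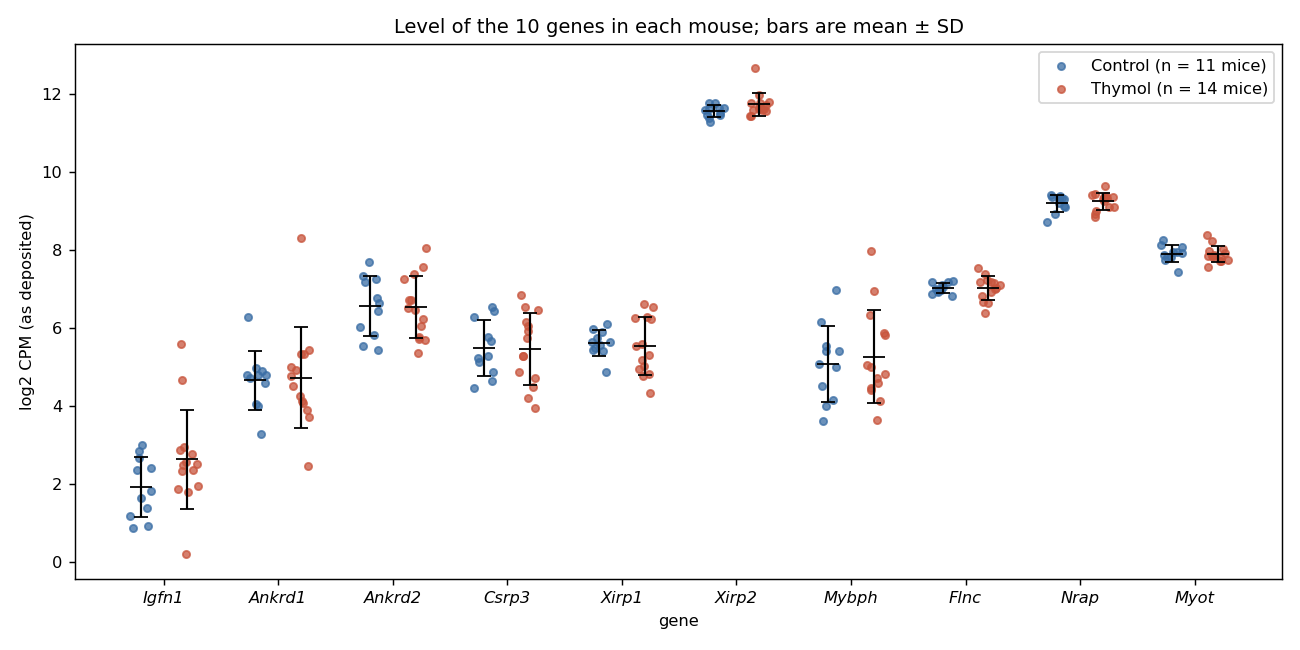
Level of each gene in each mouse as log2 CPM (y axis) for the 10 genes (x axis), with control mice (n = 11) in blue and Thymol mice (n = 14) in red. Horizontal marks and bars are the mean ± SD of a group. Igfn1, Ankrd1, Ankrd2, Csrp3 and Mybph spread over a wide range within each group. Xirp1 does so mainly in Thymol mice (SD 0.74, against 0.33 in control mice). Xirp2, Flnc, Nrap and Myot spread over a narrower range, and thymol 20 stands far above the rest in Xirp2.

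The members fell into a variable set and a steady set. The pooled SD within groups was 1.10 for Mybph, 1.10 for Ankrd1, 1.08 for Igfn1, 0.84 for Csrp3, 0.79 for Ankrd2 and 0.60 for Xirp1, on the log2 scale. These 6 ranked between 52 and 387 among the 8829 genes, where the median SD was 0.275. The other 4 had SDs of 0.25 (Xirp2), 0.25 (Flnc), 0.22 (Nrap) and 0.22 (Myot), all under that median, and ranked between 5116 and 6081. Between the lowest and the highest mouse the CPM differed 60.6-fold for Ankrd1, 54.6-fold for Igfn1, 20.9-fold for Mybph, 7.48-fold for Csrp3, 6.54-fold for Ankrd2 and 4.88-fold for Xirp1, but 1.91- to 2.58-fold for the other 4. The widest of these ranges were set by single mice. Without thymol 20 the range was 14.9-fold for Ankrd1, 10.4-fold for Mybph and 1.62-fold for Xirp2, and without thymol 30 it was 28.5-fold for Igfn1. Leaving out the lowest mouse instead gave 33.5-fold for Ankrd1 (without thymol 3) and 30.8-fold for Igfn1 (without thymol 21). At the median number of reads, counting error amounts to 0.247 on the log2 scale for Igfn1 and to between 0.00932 and 0.102 for the other 9. It is larger in mice with fewer reads, down to 7 for Igfn1, and it leaves out error from PCR. What technical error contributed to the spreads was not tested.

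Igfn1, a protein of immunoglobulin and fibronectin domains that binds the muscle protein KY at the Z-disc, had the lowest level of the 10. Its level ran from 0.87 through a median of 1.82 to 3.01 in control mice and from 0.20 through 2.5 to 5.59 in Thymol mice. Thymol 30 (355 reads) and thymol 20 (230 reads) lay above all control mice, thymol 21 (7 reads) lay below them, and the other 11 Thymol mice lay within their range. Of the 14 Thymol mice, 12 lay above the control median. The median over all mice was 34 reads.

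The muscle ankyrin repeat proteins bind titin in the I-band and can enter the nucleus. Ankrd1 (CARP) ran from 3.29 through 4.79 to 6.29 in control mice and from 2.46 through 4.65 to 8.32 in Thymol mice. A single mouse, thymol 20 with 2922 reads against a median of 199, stood far above the rest, and thymol 3 stood lowest. Ankrd2, most abundant in slow fibres, ran from 5.45 through 6.65 to 7.69 in control mice and from 5.37 through 6.50 to 8.07 in Thymol mice. The groups overlapped almost completely in both genes. Their levels had r = 0.32 with each other (rho = 0.40, n = 25 mice). The third family member, Ankrd23, had r = 0.25 with Ankrd1 and r = -0.17 with Ankrd2.

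Csrp3 (muscle LIM protein), a Z-disc protein that also acts as a cofactor of myogenic transcription factors, ran from 4.48 through 5.30 to 6.55 in control mice and from 3.97 through 5.52 to 6.85 in Thymol mice. Mybph, a thick filament protein related to myosin binding protein C, ran from 3.63 through 5.08 to 6.97 in control mice and from 3.65 through 4.91 to 7.98 in Thymol mice. Thymol 20 was highest in both genes. In Mybph control 19 came next, so that both groups held a mouse far above its median.

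Xirp1 (Xin) and Xirp2 (myomaxin) carry the actin-binding Xin repeats and sit at junctions and at sites of myofibril damage. Xirp1 ran from 4.89 through 5.66 to 6.11 in control mice and from 4.34 through 5.44 to 6.61 in Thymol mice. In Xirp1 5 Thymol mice lay above all control mice and 3 below them, a wider spread on both sides. Xirp2 was by far the most abundant member, with a median of 3153 CPM and rank 26 of all genes by level. It ran from 11.30 through 11.60 to 11.78 in control mice and from 11.44 through 11.66 to 12.67 in Thymol mice, with thymol 20 far above the rest. Its pooled SD was 0.25 over all mice and 0.15 without thymol 20.

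Flnc (filamin C), the muscle actin cross-linker that is unfolded by load and cleared with the co-chaperone BAG3, ran from 6.84 through 6.996 to 7.21 in control mice and from 6.39 through 7.07 to 7.54 in Thymol mice. Nrap, an actin-binding protein of myofibril assembly, ran from 8.71 through 9.31 to 9.42 in control mice and from 8.85 through 9.33 to 9.65 in Thymol mice. Myot (myotilin), a Z-disc protein that binds alpha-actinin and filamin C, ran from 7.44 through 7.92 to 8.25 in control mice and from 7.58 through 7.85 to 8.40 in Thymol mice. Control 18 was lowest in both Nrap and Myot.

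**Figure D2:**
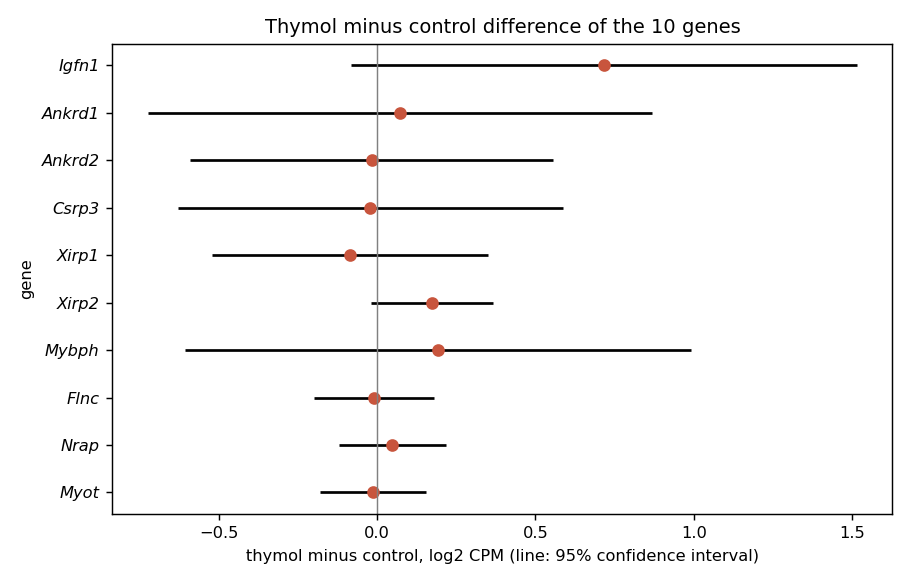
Difference between Thymol and control means in log2 CPM (x axis) for each gene (y axis), as points with lines for the 95% confidence interval of the limma fit (n = 11 and 14 mice). All 10 intervals hold 0, and that of Igfn1 runs furthest to the right.

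Between the treatment groups the members' means were close, with Igfn1 apart. The difference, Thymol minus control, was 0.72 ± 0.39 (SE) for Igfn1 on the log2 scale (95% confidence interval -0.082 to 1.52), the second largest in absolute value of all genes. It was 0.19 ± 0.39 for Mybph, 0.17 ± 0.094 for Xirp2, 0.07 ± 0.39 for Ankrd1 and 0.05 ± 0.083 for Nrap. It was negative for the other 5, at -0.08 ± 0.21 for Xirp1, -0.02 ± 0.30 for Csrp3, -0.02 ± 0.28 for Ankrd2, -0.01 ± 0.082 for Myot and -0.01 ± 0.093 for Flnc. The median over the 10 was 0.02, beside -0.0014 over all genes, and the median absolute difference was 0.06, beside 0.07. The set was chosen with the result for Igfn1 known, so these differences and their intervals are a description. The counts of called members that follow are given beside the share of all genes, and nothing is read from them.

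Of the 10 members, 0 passed an adjusted p of 0.05 (limma, Benjamini-Hochberg), beside 0% of all genes, and 0 passed an unadjusted p of 0.05, beside 3.53% (312 genes). Of those 312 genes, 162 had a higher (1.83% of all genes) and 150 a lower mean in Thymol mice (1.7%). The mean was higher in Thymol mice for 5 of the 10 members, beside 49.6% of all genes. Voom on the recovered reads gave the same counts for the members, with 304 genes (3.44%) at an unadjusted p under 0.05 and 0 at the adjusted one. The size of the difference of Igfn1 depended on single mice. It was 0.49 without thymol 30 and 0.30 without thymol 20 and thymol 30, but 0.90 without thymol 21, the lowest mouse. Without thymol 20, that of Ankrd1 was -0.20, that of Mybph -0.02 and that of Xirp2 0.10, so the sign of the first 2 turned with 1 library. With 1 mouse left out at a time the sign also turned for Ankrd2 (-0.13 to 0.10), Csrp3 (-0.13 to 0.09), Xirp1 (-0.17 to 0.0077), Flnc (-0.05 to 0.04), Nrap (-0.00087 to 0.08) and Myot (-0.06 to 0.02), and only Igfn1 and Xirp2 stayed above 0 in all 25 of these fits. The count of 5 members with a higher mean therefore has no stable value. Igfn1 was chosen with its difference known, so its constant sign over fits of the same mice is not a test. For the variable genes the intervals are wide: those of Ankrd1, Mybph, Csrp3 and Ankrd2 hold changes of more than 0.5 in both directions.

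**Figure D3:**
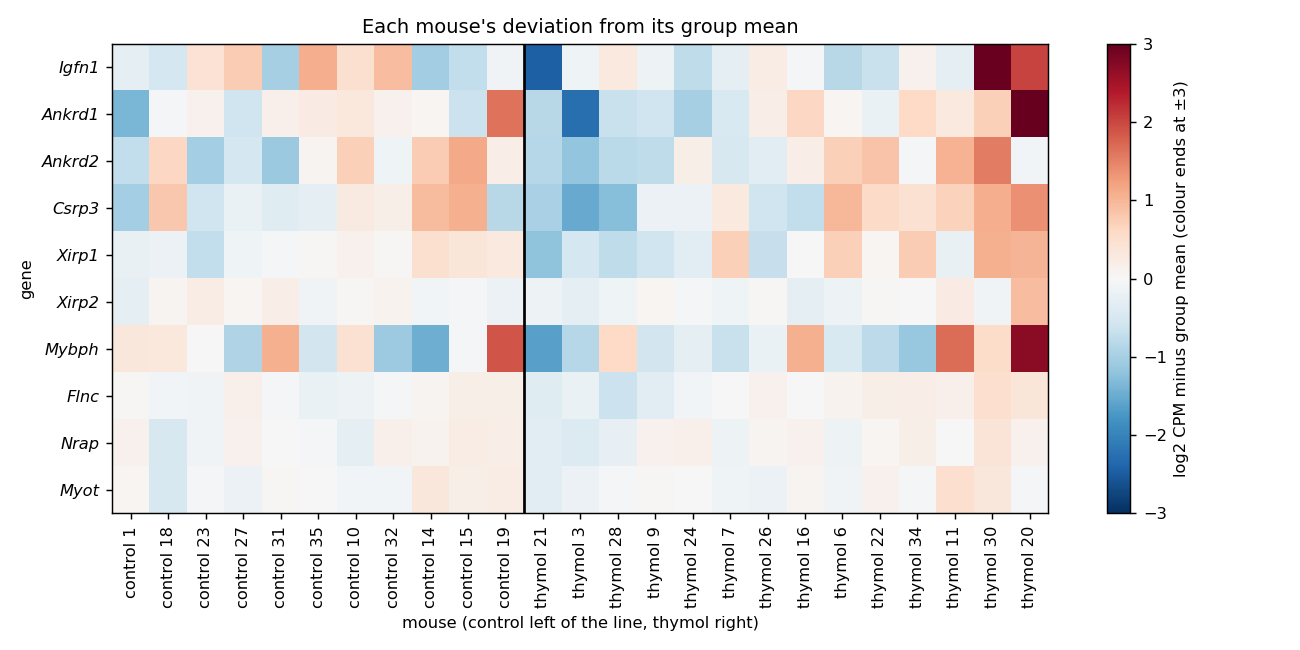
Deviation of each mouse (x axis, ordered within its group by the mean deviation over the 10 genes) from its group mean for each gene (y axis), as colour in log2 CPM, with control mice left of the line and Thymol mice right of it. Thymol 21 and thymol 3 are below their group mean in all 10 genes, and thymol 30 and thymol 20 are above it in 9 and 8.

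After the group means were removed, the members varied together. Of their 45 pairs, 44 had a Pearson r above 0 over the 25 mice, with a median of 0.36 (median Spearman rho 0.28), while 49.8% of all gene pairs were above 0 with a median of -0.0011. The median over the members was 0.345 without thymol 20, with 43 pairs above 0, and 0.21 without thymol 20 and thymol 30. Without control 18, control 19 and thymol 20 it was 0.37. An r above 0.5 was found in 12 of the 45 pairs and in 1.22% of all gene pairs. No p is given, since the genes were chosen by name with results known and all values come from the same libraries. The r of a member with log2 depth lay between -0.159 (Flnc) and 0.371 (Ankrd1).

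Among the pairs the highest was Ankrd2 with Csrp3 (r = 0.75, rho = 0.73), followed by Csrp3 with Xirp1 (r = 0.73, rho = 0.71) and Xirp1 with Flnc (r = 0.73, rho = 0.70). Without the 2 mice farthest from the median of the first gene these were 0.70, 0.69 and 0.63, so they did not rest on those mice. The 6 pairs among Csrp3, Xirp1, Flnc and Ankrd2, singled out after their values were seen, had r of 0.58 to 0.75. In control mice alone Ankrd2 with Flnc was 0.18 and Csrp3 with Flnc 0.07. The Z-disc protein Myot had r of 0.26 with Csrp3, 0.34 with Xirp1, 0.41 with Flnc and 0.49 with Ankrd2. A second pair was Nrap with Myot (r = 0.63, rho = 0.52, and 0.49 without control 18 and thymol 3), both among the steady members. Nrap also followed Flnc (r = 0.62, rho = 0.64).

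Other pairs moved more when mice were left out. Ankrd1 with Xirp2 had r = 0.66 but rho = 0.28, and r = 0.06 without thymol 20 and thymol 3. Ankrd1 with Mybph had r = 0.63, rho = 0.46 and r = 0.42 without the same mice, and r = 0.43 in control mice. Igfn1 had its highest r with Ankrd1 (0.48, rho = 0.47), which was 0.17 without thymol 20 and thymol 30. With Xirp1 (0.44) and Flnc (0.42) its rho was 0.15 and 0.13. Without thymol 20 and thymol 30 the r of Igfn1 with Xirp1 was 0.06 and with Flnc -0.02.

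**Figure D4:**
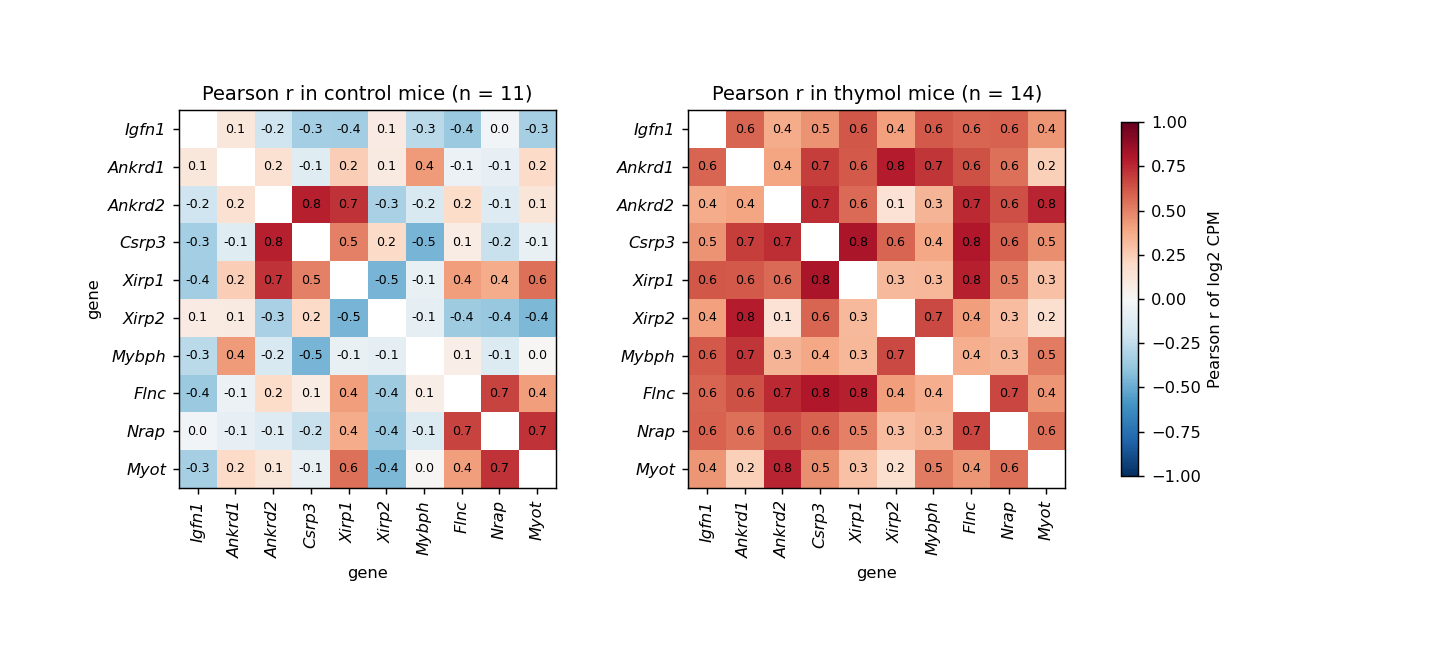
Pearson r of log2 CPM for each pair of the 10 genes (both axes) in control mice (left, n = 11) and in Thymol mice (right, n = 14), on a colour scale from -1 to 1. Thymol mice show r above 0 in all 45 pairs, and control mice in 22 of them.

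The pairs were also computed within each group. In control mice the median r of the 45 pairs was -0.03 and 22 were above 0, whereas in Thymol mice it was 0.55 and all 45 were above 0, beside 49.9% of all gene pairs in either group. Leaving out any 1 mouse gave -0.07 to 0.10 in control mice and 0.48 to 0.59 in Thymol mice. Without thymol 20 it was 0.51 in Thymol mice, and without thymol 20 and thymol 30 it was 0.44 with 41 pairs above 0. Without thymol 20, thymol 30 and thymol 21, which leaves 11 mice as in the control group, it was 0.34 with 33 pairs above 0. The difference between the groups was not tested. Ankrd2 with Csrp3 was as high in control mice (0.77) as in Thymol mice (0.74), and Nrap with Myot and with Flnc was high in both (0.72 and 0.55, 0.67 and 0.66). Csrp3 with Flnc was 0.07 in control mice and 0.80 in Thymol mice, and all pairs of Igfn1 but those with Ankrd1 and Xirp2 were negative in control mice.

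The spread itself was also wider in Thymol mice for 9 of the 10 members, while this held for 42.2% of all genes. The median ratio of the Thymol to the control SD was 1.46 over the members and 0.938 over all genes. It rested on few mice: without thymol 20 it held for 8 members with a median ratio of 1.1, and without thymol 20 and thymol 30 it held for 5 with a ratio of 0.991. The deviations by mouse show the same, since thymol 21 and thymol 3 lay below their group mean in 10 of 10 members, thymol 30 above it in 9 and thymol 20 in 8, while control mice lay above it in 3 to 7.

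**Figure D5:**
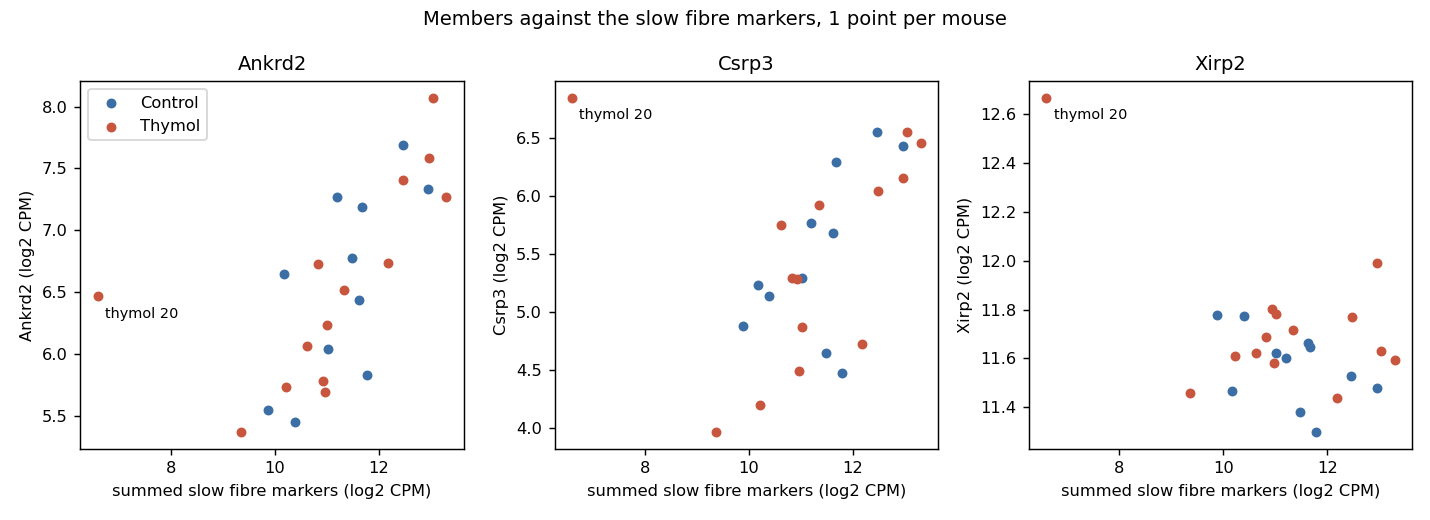
Level of Ankrd2, Csrp3 and Xirp2 (y axes, log2 CPM) against the summed slow fibre markers (x axes, log2 CPM), with 1 point per mouse, control in blue and Thymol in red. Apart from thymol 20, Ankrd2 and Csrp3 tend to be higher where the markers are higher. Thymol 20 has the lowest marker sum (6.60) and the highest Csrp3 and Xirp2.

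The fibre makeup of the samples moved with some of the members. The 9 slow fibre markers in the table, among them Myl3 and Tnnt1, summed to 9.88 to 12.95 in control mice and 6.60 to 13.30 in Thymol mice on the log2 CPM scale. The 11 fast fibre markers summed to 16.97 to 17.45 in control and 17.01 to 17.45 in Thymol mice, far above the slow ones. The lowest slow fibre sum was that of thymol 20, whose Myl3 was 3.32 and Tnnt1 2.83, against control means of 9.37 and 8.84. Over all mice the slow fibre sum had r = 0.62 with Ankrd2, 0.26 with Csrp3, 0.22 with Flnc, 0.14 with Xirp1 and -0.55 with Xirp2. Without thymol 20 these were 0.82, 0.73, 0.64, 0.57 and 0.00. The r with Ankrd1 turned from -0.27 to 0.40, while with Igfn1 it was -0.28 and then 0.00. Without thymol 20, the values for Igfn1, Xirp2 and Ankrd1 pool opposite signs. In control mice the r was -0.53 for Igfn1, -0.48 for Xirp2 and -0.21 for Ankrd1. In Thymol mice without thymol 20 it was 0.22, 0.32 and 0.76. In all Thymol mice, thymol 20 included, it was -0.21, -0.56 and -0.28, negative as in control mice. For Ankrd2 the r was 0.68 in control mice and 0.91 in Thymol mice without thymol 20, and for Csrp3 0.60 and 0.80. With thymol 20 included, the Thymol values were 0.63 for Ankrd2 and 0.16 for Csrp3. These differences between the groups were not tested. The relation was not particular to slow fibres. Myh2, the marker of type IIA fibres, had r = 0.56 with Ankrd2, 0.22 with Csrp3, 0.19 with Flnc, 0.10 with Xirp1 and -0.51 with Xirp2. Without thymol 20 these were 0.74, 0.66, 0.57, 0.50 and 0.05. Myh2 was also lowest in thymol 20, at 8.69 against a control mean of 10.48. The fast fibre markers had r = -0.77 with Ankrd2, -0.62 with Csrp3 and -0.51 with Xirp1, and these changed little without thymol 20 (-0.77, -0.68 and -0.56). Thymol 20 thus combined the lowest slow fibre and type IIA markers with the highest Ankrd1, Csrp3, Xirp2 and Mybph. The part of fibre makeup in the co-variation of the members was not tested.

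Mybph followed the markers of regenerating and denervated fibres most closely (r = 0.59, rho = 0.53, and 0.62 without thymol 20), and Ankrd1 came next (0.45). Of that list, 11 of 14 genes were in the table and the embryonic myosin Myh3 and the fetal receptor subunit Chrng were not. The sum of the 11 ranged from 7.42 to 8.63 in control mice and from 7.37 to 8.55 in Thymol mice. The leukocyte markers, 8 of 9 in the table, had r = -0.45 with Nrap and -0.35 with Myot, and their highest sum, 8.83, was that of control 18, the mouse with the lowest Nrap and Myot. Without control 18 these r were -0.25 and -0.12. In control mice alone, control 18 included, they were -0.80 and -0.70, and in Thymol mice alone -0.12 and -0.02. Without control 18 those in control mice were -0.56 and -0.36. The summed adipocyte markers had r = 0.45 with Ankrd2. Car3 was the most abundant of them, with a control mean of 11.08 beside a control median of 11.38 for the sum. Taken gene by gene, the median r was 0.15 with Ankrd2 and 0.41 with Ankrd1, with 8 of 8 genes above 0 for both. Among the endothelial, tendon and fibroblast, and nerve and Schwann cell markers, r with the members lay between -0.40 and 0.38. What these cells contributed was not tested.

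Partner genes of the same structures were counted by direction. Of 25 titin and Z-disc partners 13 had a higher and 12 a lower mean in Thymol mice, of 13 M-band and thick filament partners 5 and 8, and of 18 measured stretch, SRF and YAP target genes 9 and 9. Of 12 measured thin filament genes the counts were 9 and 3, and of 11 measured chaperone partners of filamin C 7 and 4. The count with an adjusted p under 0.05 was 0 in each list (limma), and 1 gene, Stub1 (CHIP, the ubiquitin ligase that works with BAG3), had an unadjusted p under 0.05 with a difference of 0.10 ± 0.05 (SE). The largest differences were those of Atf3, a stress-induced transcription factor (-0.70 ± 0.42), Hspa1a, an inducible chaperone (-0.45 ± 0.47), Ccn2, a YAP target (-0.34 ± 0.21), and Kbtbd12 (0.34 ± 0.24), and 0 of these 4 passed either threshold.

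The summed level of the chaperone partners of filamin C varied together with several members over the 25 mice. Their sum had r = 0.76 with Csrp3, 0.71 with Ankrd1, 0.71 with Xirp1, 0.70 with Flnc and 0.59 with Ankrd2. Without thymol 20 it was 0.73, 0.48, 0.66, 0.67 and 0.77. In control mice alone it was 0.61, -0.07, 0.51, 0.08 and 0.56, and in Thymol mice alone 0.81, 0.90, 0.75, 0.82 and 0.63. With Igfn1 it was -0.72 in control mice and 0.63 in Thymol mice, and with Nrap -0.35 and 0.51. Without control 18 the r in control mice was -0.72 with Igfn1 and 0.02 with Nrap, so the negative value for Nrap rested on that library. These differences between the groups were not tested. Taken gene by gene over the 11 partners and all mice, r was lower. Its median was 0.41 with Csrp3, 0.15 with Ankrd1, 0.43 with Xirp1, 0.27 with Flnc and 0.12 with Ankrd2. For these members 8, 9, 8, 8 and 9 of the 11 were above 0. Among the partners, the small heat shock protein Cryab had r = 0.72 with Csrp3 and 0.76 with Flnc, and Bag3 had 0.65 and 0.51. The sum of the stretch, SRF and YAP list had r = 0.68 with Nrap, 0.67 with Flnc, 0.66 with Xirp1 and 0.64 with Myot. In control mice alone these were 0.74, 0.27, 0.38 and 0.61, and in Thymol mice alone 0.63, 0.84, 0.80 and 0.67. Without control 18 the control values were 0.52, 0.20, 0.36 and 0.28. Taken gene by gene over the 18 genes and all mice, the median r was only 0.11 with Nrap, 0.15 with Flnc, 0.16 with Xirp1 and 0.19 with Myot. The sum of the titin and Z-disc list had its highest r with Nrap (0.44), and that of the M-band list had r = -0.51 with Ankrd2 and -0.52 with Csrp3. Gene by gene the medians for these were 0.40, -0.12 and -0.02.

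Over all 8829 genes, the 3 genes most like each member, or 5 for Igfn1, were named by r over the 25 mice. For Ankrd2 they were Ablim1 (0.86), Lmod2, a leiomodin of thin filament length control (0.86), and Hspb7, a small heat shock protein (0.86). For Csrp3 they were Lmcd1 (0.85), Dnaja4 (0.83) and again Hspb7 (0.83), and for Xirp1 Atf3 (0.83), Git1 (0.77) and Rcan1 (0.76). For Flnc they were Hspa1l (0.76), Cryab (0.76) and Rnf115 (0.73). All of these r stayed at 0.55 or above without the 2 mice farthest in the member.

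For Nrap they were Map3k20 (0.81), Eif4g3 (0.80) and Kif1b (0.75), and for Myot Tmem38b (0.75), Ssh2 (0.74) and Camta1 (0.71). For Mybph they were the integrin Itga4 (0.71), the growth arrest gene Gadd45a (0.69) and Actc1, the cardiac actin of developing muscle (0.68). For Ankrd1 they were Klhl40 (0.76), Atosb (0.75) and Pdlim3 (0.75), which were 0.50, 0.54 and 0.52 without thymol 20 and thymol 3. For Xirp2 they were Lrp2bp (0.74), Mustn1 (0.68) and Cd99l2 (0.67), which were 0.30, -0.11 and 0.17 without thymol 11 and thymol 20. For Igfn1 they were Cog4 (0.67), Ddx56 (0.63), Cep170b (0.62), Panx1 (0.61) and Ngrn (0.58). No member was among the 5 genes most like Igfn1, and the nearest ranked 39.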

How the data were processed

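Gene expression was measured by QuantSeq 3' mRNA sequencing in the gastrocnemius of 25 mice. The authors mapped reads to GRCm38 with STAR 2.5.3 and counted them per gene with HTSeq 0.6.1 (submitters' processing notes and the study's methods), kept genes with at least 30 reads in at least 6 samples, applied TMM scaling and deposited log2 CPM values for 8829 gene symbols. Whether counting used strand is not given in the sources used here. Read numbers were worked out from the spacing of the deposited log2 values, and 100% of the 220725 values were whole within 0.01 read. Counting error was worked out from the read numbers alone. It leaves out error from PCR amplification, for which molecular identifiers are not described.

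Mice were grouped by their labels. Thymol and control were compared with limma (version 3.58.1, under R 4.3.3) on the deposited log2 CPM (linear model, empirical Bayes with trend, two-sided, Benjamini-Hochberg over 8829 genes). Residuals from the group means gave the pooled SD and the correlations. Sums of a gene list are log2 of the summed CPM. The members, the 14 gene lists and the tests were chosen with earlier results of these data known. Genes named outside the members were, for each partner list, the 2 largest differences in each direction, for each marker list the 2 most abundant genes, and the 5 genes most like Igfn1 and 3 most like each other member. Of these not all are printed, and Bag3, Myh3, Chrng and Ankrd23's correlations were named after their values were seen. Gene positions are from GENCODE M21 and promoter sequences from RefSeq, read with pandas 2.3.3, and figures were drawn with matplotlib 3.10.9. On simulated data for this comparison, 128 of 200 genes changed by 0.5 and 192 of 200 changed by 1 on the log2 scale were called, with 5 and 13 unchanged genes, of 8829. The changed genes were drawn at random from all genes, whose median pooled SD was 0.275. These rates do not carry over to members with far wider spread, such as Igfn1 (1.08), Ankrd1 (1.10) and Mybph (1.10). Alternatives were other scalings, filters, moderation, weights and covariates, voom on the recovered reads, another prior count, each mouse left out in turn, and, added after the data were seen, fits without named mice.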

Additional observations from a re-analysis of the deposited data

How the results depend on the processing

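The count of 0 genes at an adjusted p under 0.05 was obtained under 13 alternatives and in each of 25 fits that left out 1 mouse. The number at an unadjusted p under 0.05 ranged from 234, with only the 75% most abundant genes, where Igfn1 was not in the fit, to 346, and from 287 to 348 with 1 mouse left out. The median difference of the 10 genes ranged from -0.081 to 0.097 over the alternatives and from -0.014 to 0.087 with 1 mouse left out, and thus had no stable sign. That of Igfn1 stayed above 0, from 0.30 to 1.05 and from 0.49 to 0.90. Igfn1 was chosen with its difference known, and these fits reuse the same mice, so its constant sign is a description. It is not a test of the difference, whose confidence interval in the limma fit to all mice held 0. The median r of the member pairs ranged from 0.30 to 0.42 with 1 mouse left out, and was -0.0307 within the control group and 0.55 within the Thymol group. The median SD ranged from 0.62 to 0.69 over the alternatives and from 0.65 to 0.71 with 1 mouse left out. A replicate block on the number that opens the label, over the mice whose number occurs in both groups, gave 0 genes, 283 at an unadjusted p and a median difference of 0.097. With this block the difference of Igfn1 was 1.05, and those of Ankrd1 (-0.17), Ankrd2 (0.23) and Myot (0.12) changed sign. Mice of opposite groups that share this number had a mean r of -0.0022 over 9 pairs (-0.179 to 0.104), beside 0.00021 over 145 other pairs. A mean over so few pairs and all genes cannot show whether the number pairs mice for some genes. A quasi-likelihood count test on the recovered reads was not run. Counting error at the median number of reads was 0.247 for Igfn1, beside a pooled SD of 1.08.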
